A study of Mus musculus with 10 samples.

Results

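The 4 genes Gcm2, Pth, Casr and Gata3, of the parathyroid programme, were followed in chromatin accessibility data from mouse thymic epithelial cells (TEC). The regions studied are all those called open within the mm10 RefSeq span of each gene or within 50 kb on either side. This gave 95 regions of 351411 in the whole series (251 peaks of 882163). There were 20 regions around Gcm2, 16 around Pth, 37 around Casr and 22 around Gata3. The assay, ATAC-seq, uses a transposase to cut and tag open DNA, and peaks mark stretches with more cuts than their surroundings. The 10 libraries came from sorted TEC of wild-type C57BL/6 mice and formed 5 groups of 2. Of these, 2 groups are embryonic, from day 15 (E15) and from day 17 (E17) of gestation, and the other 3 are sorted fractions from day 6, named mTEC4, mTEC1 and mTEC2. These fraction names are not explained in the titles, which also give no fraction for the embryonic libraries, so age and sorted fraction differ together and cannot be told apart. Peak names inside the deposited lists carry different tags: aTEC for mTEC4, eTEC for mTEC1, and a tag hi for mTEC2 and for both embryonic ages. Which sorted population each group holds is therefore uncertain, and groups follow the titles. Nothing in the labels ties the 2 libraries of a group to separate animals, so p-values measure the spread between libraries, which may be technical. The tests between the ages also treat the 10 libraries as separate units, although they form 5 groups of 2.

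The parathyroid glands and the thymus arise from the same endodermal pouch of the embryonic pharynx. Gcm2 is the transcription factor that marks and is required for the parathyroid part of that pouch, while Foxn1 is required for the thymic part. Gata3 is a zinc finger factor that acts upstream of Gcm2 in the pouch and is also a central regulator of T cells. Casr is the calcium-sensing receptor through which parathyroid cells read blood calcium, and Pth encodes parathyroid hormone, the secreted product that raises it. Casr and Pth are products of mature parathyroid cells, and genes of other organs are also transcribed at low levels by medullary TEC as self-antigens.

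The promoters of the 4 genes are shown because their base composition and their peak calls differ. Each sequence is the RefSeq window (GRCm38.p6, the mm10 assembly) from 250 bases before to 50 after the annotated start of transcription, read 5′ to 3′ along the minus strand, on which all 4 genes lie. Capitals mark matches to 4 short motifs searched on both strands: GATAA, bound by GATA factors, TATAAA, the TATA box, GGGCGG, the GC box, and ATGCGGG, bound by Gcm factors.
Gcm2 promoter, chr13:41109939-41110238: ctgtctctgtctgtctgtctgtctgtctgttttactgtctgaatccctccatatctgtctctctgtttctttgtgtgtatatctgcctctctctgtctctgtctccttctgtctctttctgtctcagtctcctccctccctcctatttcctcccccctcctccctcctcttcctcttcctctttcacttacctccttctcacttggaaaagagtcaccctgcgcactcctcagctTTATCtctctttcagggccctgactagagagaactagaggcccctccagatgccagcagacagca
Pth promoter, chr7:113388524-113388823: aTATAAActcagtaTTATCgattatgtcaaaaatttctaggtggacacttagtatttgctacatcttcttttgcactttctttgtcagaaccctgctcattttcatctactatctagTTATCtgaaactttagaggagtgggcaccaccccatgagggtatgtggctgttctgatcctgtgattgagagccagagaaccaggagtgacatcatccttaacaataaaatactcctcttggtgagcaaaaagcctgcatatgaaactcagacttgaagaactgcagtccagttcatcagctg
Casr promoter, chr16:36562085-36562384: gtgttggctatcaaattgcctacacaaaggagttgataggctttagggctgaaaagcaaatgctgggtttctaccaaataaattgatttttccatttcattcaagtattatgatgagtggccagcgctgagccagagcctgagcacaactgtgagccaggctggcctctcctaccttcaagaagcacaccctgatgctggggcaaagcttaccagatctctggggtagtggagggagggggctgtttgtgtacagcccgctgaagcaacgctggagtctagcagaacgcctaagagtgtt
Gata3 promoter, chr2:9878551-9878850: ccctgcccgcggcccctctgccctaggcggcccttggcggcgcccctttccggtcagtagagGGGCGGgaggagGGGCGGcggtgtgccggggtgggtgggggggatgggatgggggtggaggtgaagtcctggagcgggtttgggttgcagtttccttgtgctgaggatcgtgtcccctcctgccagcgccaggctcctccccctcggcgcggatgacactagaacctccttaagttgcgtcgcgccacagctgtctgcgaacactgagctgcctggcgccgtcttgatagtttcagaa

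Only the Gata3 window lay under a called region. It was called in 9 of 10 libraries, whereas the windows of Gcm2, Pth and Casr were called in 0 of 10. Within 1 kb of the start, a region was called in 10 libraries at Gata3, 7 at Gcm2, 6 at Casr and 0 at Pth. The Gata3 window was also the most GC-rich of the 4 at 67.3% GC with 22 CpG dinucleotides, against 50.7% and 1 for Gcm2, 40.3% and 1 for Pth, and 49.7% and 4 for Casr. Promoters of like composition gave the following background in the same lists. Of the 32851 RefSeq promoters, 48.2% were called in no library and 31.1% in 9 or 10. Among those with no more than 1 CpG, 92.4% were called in none, and among those with no more than 4 CpG, 87.1%. Within 1 kb of the start, the shares called in none were 77.5% and 68.6% in the same order. With 22 or more CpG, 78.0% were called in 9 or 10 libraries. GATAA or its reverse TTATC matched once in the Gcm2 window and 2 times in the Pth window, and 25.4% of all promoters held it. TATAAA matched once in the Pth window (13.6% of promoters), and GGGCGG matched 2 times in the Gata3 window (35.7% of promoters). ATGCGGG was in none of the 4 windows and in 1.41% of promoters. The motifs did not overlap one another, and a match is a description of letters, not a binding site.

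The lists themselves set how the counts can be read. They held between 40858 and 151646 peaks, with 86237 to 151646 in the embryonic libraries and 40858 to 101917 at day 6, and read depth is unknown. The mean number of regions per gene window over all 21887 protein-coding genes was 7.93 to 12.3 in the embryonic libraries and 3.85 to 8.13 at day 6. Each count was therefore also divided by that mean of its own library, which gives a relative count with 1 as the average gene. Among 17 TEC marker genes, 15 to 17 had a peak within 1 kb of a gene end in each embryonic library and 8 to 14 in each day 6 library, and Foxn1 had one in all 4 embryonic libraries and in 0 of 6 day 6 libraries. For 20 thymocyte and T cell genes the number was 3 to 5 in the embryonic libraries (15% to 25%). At day 6 it was 1 and 8 in mTEC4, 9 and 12 in mTEC1, and 18 and 8 in mTEC2 (5% to 90%). Among these, Tcf7, Bcl11b and Cd4 had such a peak in all 4 embryonic libraries and in 6, 4 and 3 of 6 day 6 libraries. Cd3e, Cd3g, Cd3d, Lck and Rag1 had one in 0 of 4 embryonic libraries and in 3, 4, 4, 2 and 1 of 6 day 6 libraries, and Rag2 in none. Of 9 mesenchymal genes, 7 had a peak at an end in every embryonic library (77.8%) and 0 to 3 at day 6 (0% to 33.3%). Pdgfra, Col1a2 and Twist1 were called in all 4 embryonic libraries and none at day 6, and Col3a1 and Prrx1 in no library. Of 12 dendritic cell and macrophage genes, 5 to 6 had a peak at an end in the embryonic libraries (41.7% to 50%) and 4 to 6 at day 6 (33.3% to 50%). By window count, Itgax and Adgre1 of that list passed with more at day 6, by embryonic minus day 6 differences of -4.42 and -4.33 regions (exact permutation, adjusted p = 0.0355 for both), a direction called at 1.01% of all genes. Neither had a peak at an end in any library, and Irf8 and Cd68 passed with more regions in the embryo (exact permutation, adjusted p = 0.0256 and 0.0441). The contribution of other cells to the results below was not tested, and in bulk libraries more cells with an open site and more opening per cell cannot be told apart. Replicate 1 of mTEC2, with 18 of the 20 thymocyte genes and the longest day 6 list, stands apart, and results are also given without it where it moves them.

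**Figure D1:**
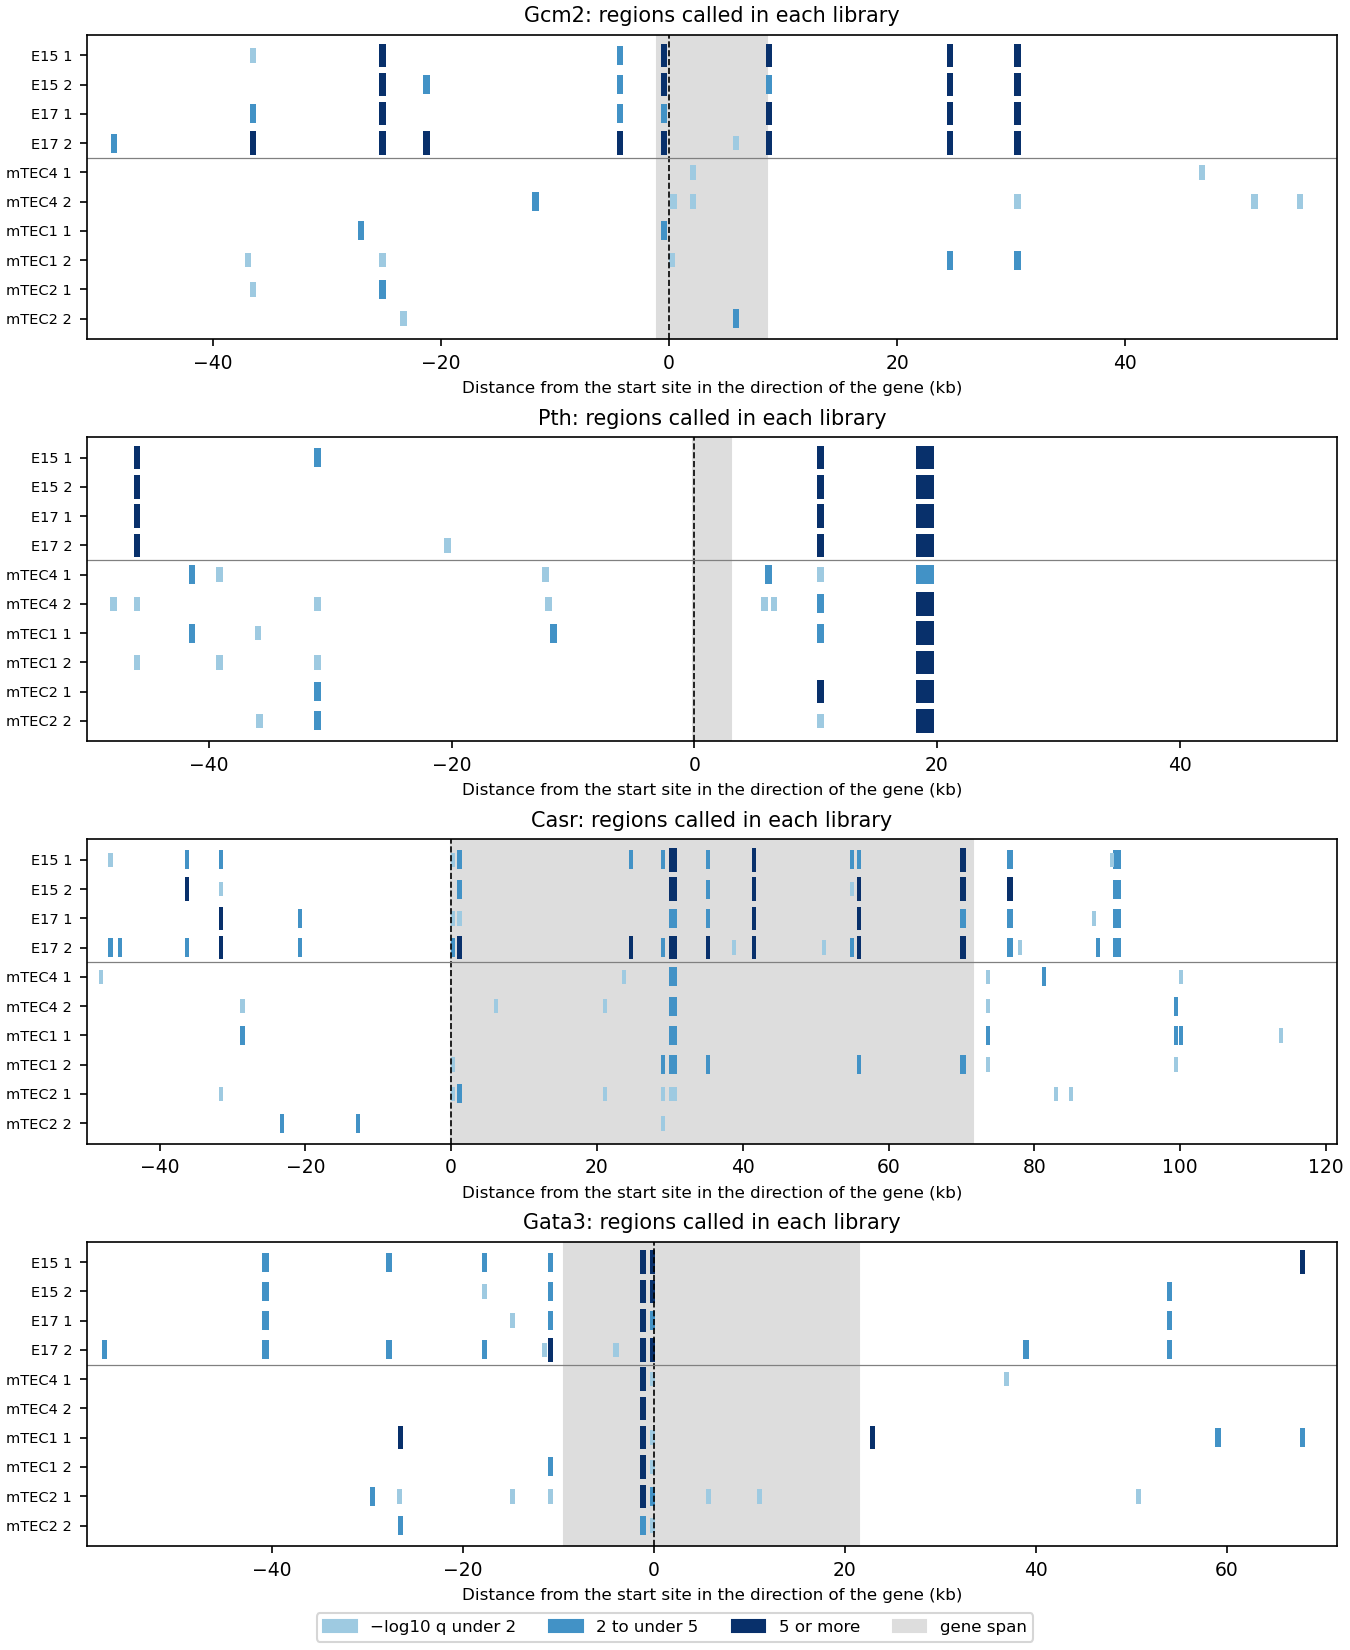
Regions called in each of the 10 libraries around Gcm2, Pth, Casr and Gata3, by distance from the start of transcription in kb along the gene, with the gene span in grey and darker, taller bars for a higher −log10 q. Narrow regions are drawn wider than they are so that they can be seen. The dark bars at Gcm2 and Casr lie in the embryonic rows only, no bar lies in the Pth span, and 1 region near the Gata3 start is called in all 10 libraries.

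Gata3 was the one gene of the 4 whose start was called open in nearly every library. Region chr2:9878433-9878965 covered its start site and was called in all libraries except replicate 2 of mTEC4. Here and below, −log10 q is the authors' strength of a peak within its own list, where higher values are stronger. It was 5.64 and 7.80 at E15 and 2.52 and 9.90 at E17, against 1.73 in the mTEC4 library that had it, 1.13 and 1.70 in mTEC1, and 2.2 and 1.64 in mTEC2. A second region 958 bases upstream of that start, chr2:9879558-9879868, was called in all 10 libraries and was the strongest of the 95. It lay inside the Gata3 span, which reaches further upstream than the start used here. Its −log10 q was 29.9 and 39.5 at E15, 23.6 and 39.0 at E17, 6.44 and 13.8 in mTEC4, 8.39 and 6.09 in mTEC1, and 12.9 and 2.65 in mTEC2. In replicate 2 of E15 it ranked above 99.5% of the peaks in its list.

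The Gata3 window held 7 and 6 regions at E15, 6 and 11 at E17, 3 and 1 in mTEC4, 6 and 3 in mTEC1, and 9 and 3 in mTEC2. The embryonic and day 6 libraries overlapped, and mTEC4 was lowest of the 5 groups on average. The embryonic mean was 7.5 ± 2.38 (SD, n = 4) and the day 6 mean 4.17 ± 2.86 (SD, n = 6), a difference of 3.33 that did not pass the exact permutation test over the 10 libraries (two-sided p = 0.119, adjusted p = 0.175 over all genes). Without replicate 1 of mTEC2, which alone held 9 regions and had 18 of 20 thymocyte genes called at an end, the difference was 4.30 (exact permutation, adjusted p = 0.0566). Counted instead as bases under peaks, the Gata3 window was higher in the embryo by 1187 bases (exact permutation, adjusted p = 0.0256), a call that 76.8% of all genes shared. Relative to its library, Gata3 stood at 0.779 ± 0.0855 (SD, n = 4) in the embryo and 0.718 ± 0.356 (SD, n = 6) at day 6.

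Away from its start, Gata3 had 1 region that every embryonic library and no day 6 library called. This region, chr2:9918886-9919585, lies 40.3 kb upstream and inside the span of Taf3, a subunit of a general transcription factor, and it was weak (−log10 q 2.75 and 2.2 at E15, 2.05 and 2.14 at E17). Another region 10.5 kb upstream, chr2:9889145-9889673, was called in all 4 embryonic libraries, in replicate 2 of mTEC1 and in replicate 1 of mTEC2. The strongest peak of the 95 regions that was confined to 1 library also lay here. It was chr2:9855642-9855757, beyond the 3′ end of Gata3, with a −log10 q of 13.7 and a fold enrichment of 10.3 in replicate 1 of mTEC1, above 99.2% of that list, and no peak in the other 9 libraries. A region 26.4 kb upstream, chr2:9905022-9905144, was called in that library (6.33) and in replicate 2 of mTEC2 (4.23) only. Both were day 6 calls with no embryonic counterpart, and neither was found in both libraries of a group.

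Around Gcm2, every embryonic library had more called regions than any day 6 library. The window held 7 and 7 regions at E15, 7 and 10 at E17, 2 and 6 in mTEC4, 2 and 5 in mTEC1, and 2 and 2 in mTEC2. The lowest embryonic count was 7 and the highest day 6 count was 6, in replicate 2 of mTEC4. The means were 7.75 ± 1.5 (SD, n = 4) and 3.17 ± 1.83 (SD, n = 6), a difference of 4.58 (exact permutation test, two-sided p = 0.00952, adjusted p = 0.0355). Across all genes 37.4% were called higher in the embryo and 1.01% higher at day 6 in this comparison, so the call at Gcm2 is a common one. It was lost without any 1 of 8 libraries (exact permutation, adjusted p 0.0503 to 0.0658) and kept without replicate 1 of E17 or replicate 1 of mTEC2, where the difference was 4.83 and 4.35. Divided by the library mean, the counts were 0.780 and 0.801 at E15 and 0.883 and 0.812 at E17, against 0.429 and 1.07 in mTEC4, 0.363 and 0.848 in mTEC1, and 0.246 and 0.519 in mTEC2. On that scale the groups overlapped and the difference of 0.24 did not pass (exact permutation, adjusted p = 0.354). With lists of equal length the Gcm2 difference was 2 regions and did not pass either (exact permutation, adjusted p = 0.351). No gene passed on the relative scale, where 0% were called and 5630 had an unadjusted p under 0.05.

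The regions that told embryo from day 6 at Gcm2 lay at both sides of the gene. Region chr13:41101120-41101382, 45 bases beyond the 3′ end of the span, was called in all 4 embryonic libraries (−log10 q 8.96 and 3.83 at E15, 6.66 and 7.38 at E17) and in none at day 6. Region chr13:41114079-41114514, 4.1 kb upstream, had the same pattern at lower strength (2.82, 2.85, 2.61 and 6.53) and reaches the end of the neighbouring gene Sycp2l, which encodes a meiotic chromosome protein. Each separated the ages by Fisher's exact test (p = 0.00476, adjusted p = 0.0281 over 89811 regions). Over all 89811 tested regions, 16.8% passed with more calls in the embryo and 0.173% with more at day 6.

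The region called most often near the Gcm2 start, chr13:41110286-41110580, began 298 bases upstream and 47 bases beyond the printed window. It lay inside the Gcm2 span, which reaches further upstream than the start used here. This region was called in all 4 embryonic libraries (5.91 and 5.11 at E15, 3.56 and 6.51 at E17) and in replicate 1 of mTEC1 (3.53). It did not pass the test between the ages (Fisher's exact test, p = 0.0476, adjusted p = 0.0981). No region called in 5 libraries could pass after adjustment, so the test could not decide here. Just inside the gene, 2 weak regions were called in 1 day 6 library each, chr13:41109698-41109771 in replicate 2 of mTEC1 (1.44) and chr13:41109546-41109631 in replicate 2 of mTEC4 (1.93). Both mTEC4 libraries shared a weak region 1.9 kb inside the gene, chr13:41107735-41108062, with −log10 q of 1.26 and 1.42, which no other library had. The strongest region of the window, chr13:41135019-41135170, lay 25.0 kb upstream within Sycp2l. It reached 6.72 and 8.82 at E15 and 15.4 and 24.1 at E17, and was called at day 6 in replicate 2 of mTEC1 (1.30) and replicate 1 of mTEC2 (3.23). Downstream, chr13:41079180-41079787 at the end of Mak, a kinase gene of germ and retinal cells, was called at 17.6, 14.6, 8.30 and 18.2 in the embryo and at 1.65 in replicate 2 of mTEC4 and 2.45 in replicate 2 of mTEC1. Of the 20 regions, 14 lay nearer to another gene than to Gcm2. When only the regions nearest to Gcm2 were counted, the difference was 1.25 (exact permutation, adjusted p = 0.127).

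Casr had the largest difference in region count of the 4 genes, and also the longest window, with 171557 bases. The windows of the other genes ran from 103097 to 130876 bases. The Casr window held 16 and 11 regions at E15, 12 and 21 at E17, 6 and 6 in mTEC4, 6 and 8 in mTEC1, and 8 and 3 in mTEC2. The lowest embryonic count was 11 and the highest day 6 count was 8, so the ages did not overlap. The means were 15 ± 4.55 (SD, n = 4) and 6.17 ± 1.83 (SD, n = 6), a difference of 8.83 (exact permutation, two-sided p = 0.00476, the smallest that the 10 libraries allow, adjusted p = 0.0256). The call was lost without replicate 1 or 2 of E15, replicate 2 of E17, replicate 2 of mTEC4 or replicate 2 of mTEC1 (exact permutation, adjusted p 0.0503 to 0.0658), with differences of 6.83 to 10.2, and it held at 9.2 without replicate 1 of mTEC2. Relative to the library mean, Casr stood at 1.78 and 1.26 at E15, 1.51 and 1.70 at E17, 1.29 and 1.07 in mTEC4, 1.09 and 1.36 in mTEC1, and 0.984 and 0.779 in mTEC2. The relative difference of 0.47 had an unadjusted p of 0.0190 and did not pass after adjustment (exact permutation, adjusted p = 0.138). It lay at the 89.7th percentile of all genes, against 77.2 for Gcm2, 60.8 for Gata3 and 4.18 for Pth. With every list shortened to its strongest 40858 peaks, the Casr difference was -0.08, between means of 3.25 ± 1.26 (SD, n = 4) and 3.33 ± 1.51 (SD, n = 6) regions.

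**Figure D2:**
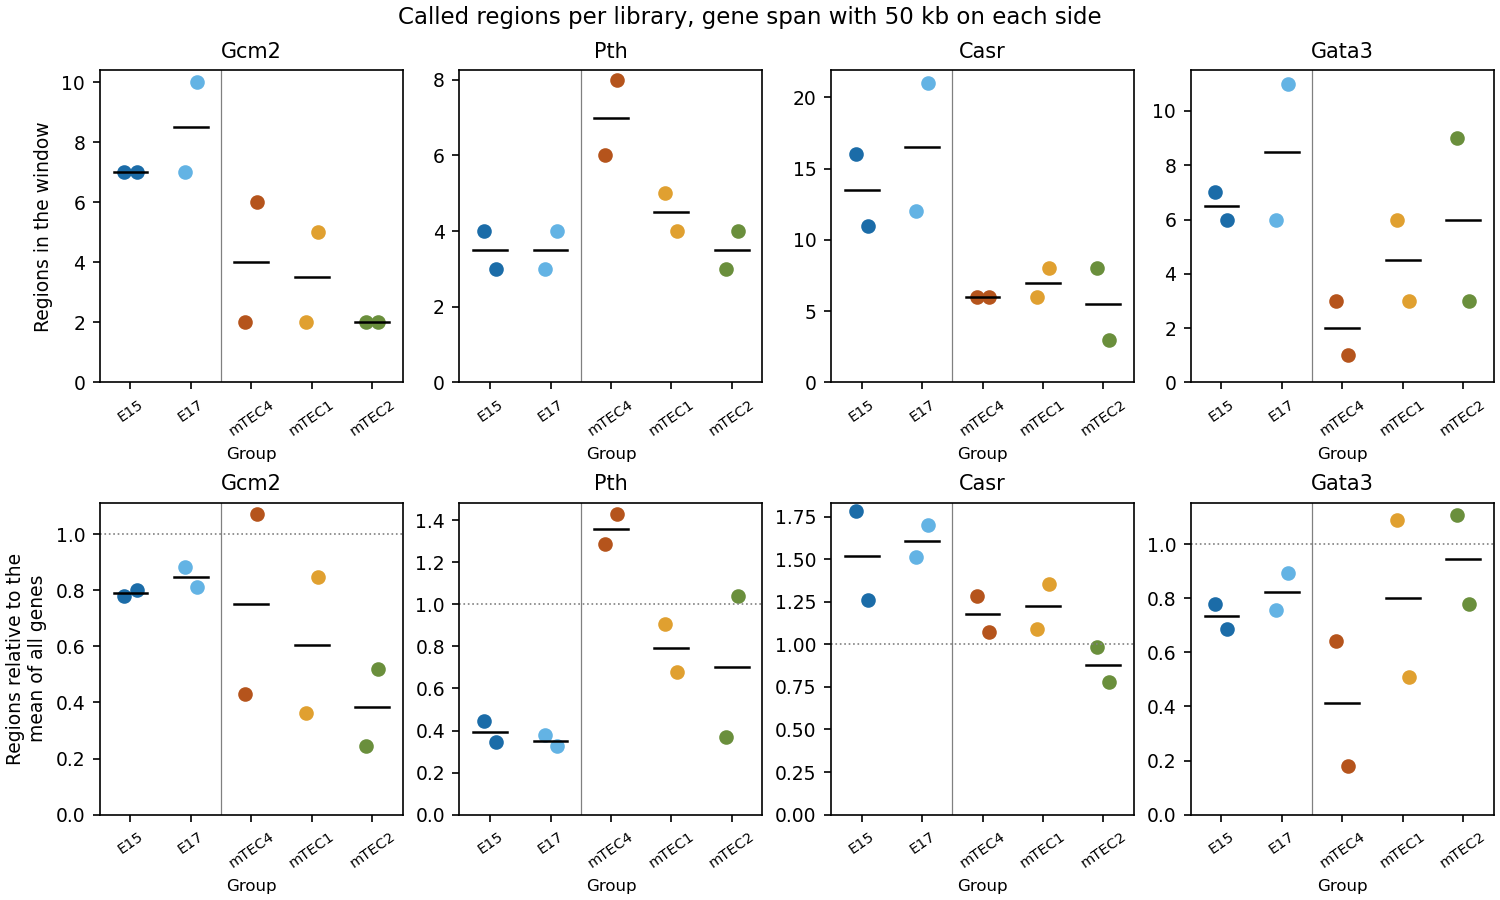
Called regions per library in the 4 gene windows, as counts (upper panels) and divided by the mean over all genes of that library (lower panels, dotted line at 1), with a point for each library and a bar at each group mean. Embryonic points lie above all day 6 points at Gcm2 and Casr in the upper panels, and both mTEC4 points lie above all others at Pth in both panels.

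Most of the embryonic regions at Casr lay within the long gene itself. The span was touched by 10 and 7 regions at E15, 7 and 12 at E17, 2 and 3 in mTEC4, 1 and 6 in mTEC1, and 5 and 1 in mTEC2. One of them, chr16:36520265-36520843, 41.3 kb downstream of the start, was called in each embryonic library (6.52, 6.12, 6.38 and 11.1) but never at day 6. It was the only region of the 95 that still separated the ages when all lists had the same length (Fisher's exact test, adjusted p = 0.0491), 1 of 10 tested in the 4 windows beside 9.21% of all 32800 regions tested. None of the 10 passed with more calls at day 6, beside 0.488% of all. The other 2 such regions at Casr, chr16:36470234-36471274 and chr16:36485124-36485906, lay beyond the 3′ end at 90.9 and 76.2 kb from the start. The widest region inside the gene, chr16:36531091-36532261, was called in 9 libraries, all but replicate 2 of mTEC2. Its −log10 q was 8.06 and 6.20 at E15 and 3.58 and 9.33 at E17, and 3.01 and 3.04 in mTEC4, 2.46 and 2.41 in mTEC1 and 1.24 in replicate 1 of mTEC2.

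The start of Casr was called less regularly. Region chr16:36560614-36561345, within 1 kb of the start, was called in all 4 embryonic libraries (3.63, 3.29, 1.78 and 7.67) and in replicate 1 of mTEC2 (3.73). A second region 99 bases into the gene, chr16:36561663-36562035, was called in 3 embryonic libraries, replicate 2 of mTEC1 and replicate 1 of mTEC2, each at 4.02 or less. Beyond the 3′ end, chr16:36488306-36488648 had the opposite pattern: it was called in both mTEC4 libraries (1.90 and 1.71) and both mTEC1 libraries (2.19 and 1.30) and in neither an embryonic nor an mTEC2 library. It did not pass the test between the ages (Fisher's exact test, p = 0.0762, adjusted p = 0.120). A region called in 4 libraries could pass only with more calls in the embryo, so the test could not decide here. Upstream, the Casr window reaches into Cd86, a costimulatory gene of antigen-presenting cells. There, chr16:36593573-36593921 was called in all 4 embryonic libraries (3.83, 1.81, 6.27 and 6.50) and in replicate 1 of mTEC2 (1.43).

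Pth was not higher in the embryo by its count. No library had a peak inside the Pth gene, and the nearest region lay 5684 bases from the printed promoter window. Its window held 4 and 3 regions at E15, 3 and 4 at E17, 6 and 8 in mTEC4, 5 and 4 in mTEC1, and 3 and 4 in mTEC2. Both mTEC4 libraries were above the other 8 libraries, which overlapped one another. The embryonic mean was 3.5 ± 0.577 (SD, n = 4) and the day 6 mean 5 ± 1.79 (SD, n = 6), a difference of -1.5 that did not pass (exact permutation, two-sided p = 0.171, adjusted p = 0.235). It was -0.9 without replicate 2 of mTEC4 and 0 with lists of equal length. Counted as bases under peaks, Pth turned and was higher in the embryo by 783.8 bases (exact permutation, adjusted p = 0.0135), as 76.8% of all genes were. On the relative scale the embryonic libraries stood at 0.446, 0.343, 0.378 and 0.325, mTEC4 at 1.29 and 1.43, mTEC1 at 0.908 and 0.678, and mTEC2 at 0.369 and 1.04. The relative difference was -0.58 (exact permutation, p = 0.0286, adjusted p = 0.159). Of all genes, 0.685% had both mTEC4 libraries above the other 8 by count and 4.8% on the relative scale; the mTEC4 pattern was singled out after its values were seen and was not tested.

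The regions that mTEC4 added at Pth were weak and mostly differed between its replicates. Of the 12 regions called in either mTEC4 library, 2 were called in both. Of the others, 3 lay 5.7 to 6.5 kb downstream of the start, past the 3′ end of the short gene, and were found in no other group: chr7:113382249-113382695 in replicate 1 (−log10 q 2.08), and chr7:113381928-113382080 and chr7:113382721-113382839 in replicate 2 (1.18 each). These neighbouring calls did not overlap between the replicates. With every list shortened to the same length, mTEC4 held 3 and 4 regions and the other 8 libraries held 1 to 4.

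The strong regions near Pth lay away from the gene and were shared. Region chr7:113368793-113370269, within Btbd10, a gene that encodes a BTB-domain protein, was called in all 10 libraries, at 19.8, 18.9, 12.2 and 17.5 in the embryo, 3.38 and 9.62 in mTEC4, 7.51 and 7.85 in mTEC1, and 18.4 and 9.75 in mTEC2. Region chr7:113377921-113378454, 10.1 kb downstream of the start, was called in 9 libraries at 15.1, 13.8, 11.8 and 23.4 in the embryo and at 1.52, 2, 2.07, 7.54 and 1.82 in the day 6 libraries that had it. Replicate 2 of mTEC1 lacked it. Far upstream, chr7:113434423-113434583 was called in all 4 embryonic libraries (9.37, 13.8, 11.4 and 28.7) but at day 6 only in replicate 2 of mTEC4 (1.66) and replicate 2 of mTEC1 (1.22). It did not pass the test between the ages (Fisher's exact test, adjusted p = 0.120). A region called in 6 libraries could pass only with more calls at day 6, so the test could not decide here. Where only calls reaching a −log10 q of 5 were kept, that region did separate the ages (adjusted p = 0.0109 by the same exact test). At that strength each embryonic library had 3 regions around Pth and the day 6 libraries 0 to 2.

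Strong peaks were called mainly in the embryo. Of the peaks in the 4 windows, 62 of 136 embryonic peaks (45.6%) and 13 of 115 day 6 peaks (11.3%) had a −log10 q of at least 5. The same shares over all peaks were 45.0% and 10.9%, close to those in the 4 windows. At Gcm2 the strong regions numbered 5, 4, 4 and 8 in the embryonic libraries and 0 in all 6 day 6 libraries. At Casr they numbered 3, 6, 3 and 8 in the embryonic libraries and 0 in all 6 day 6 libraries. Gcm2, Casr and Pth each passed the test of this count (exact permutation, adjusted p = 0.00722), as 81.4% of all genes did, with Pth now higher in the embryo by 2. Gata3 had 3, 2, 1 and 3 strong regions in the embryo, 1 and 1 in mTEC4, 3 and 1 in mTEC1, and 1 and 0 in mTEC2, and did not pass (exact permutation, adjusted p = 0.177).

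**Figure D3:**
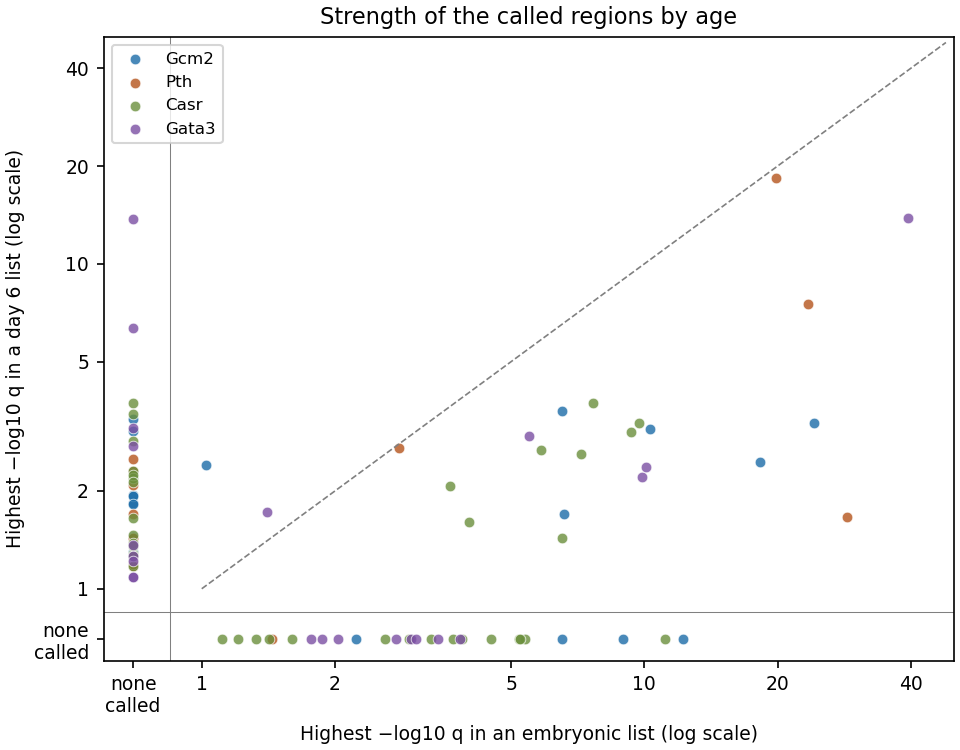
Highest −log10 q of each of the 95 regions in an embryonic list against the highest in a day 6 list, both on log axes, with regions not called at an age on the strips at the left and the bottom and the line of equality dashed. Of the 23 regions called at both ages, 21 lie below the line, a share that was not counted over all regions. Over all peaks, 45.0% in the embryo and 10.9% at day 6 had a −log10 q of at least 5. On the left strip lie 44 regions without an embryonic call (46.3%, against 51.0% of all regions). Each strength belongs to its own list.

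Across the 95 regions, 48 were called in 1 library (50.5%, against 55.1% of all regions) and 2 in all 10 (2.11%, against 2.76%). All 4 embryonic libraries shared 22 regions (23.2%, against 18.7%), and 44 regions had no embryonic call (46.3%, against 51.0%). Of the 95, 27 were called in 3 to 7 libraries, where an unadjusted p of 0.05 or less is possible, and were tested. After adjustment only regions called in exactly 4 or 6 libraries could pass, and 12 of the 27 were such regions. Those called in 4 could pass only with more calls in the embryo, and those called in 6 only with more at day 6. The test could not decide on the other direction for these 12, nor for the rest of the 27. The 68 regions not tested could not reach even the unadjusted threshold, 48 of them called in 1 library, 15 in 2 and 5 in 8 or more. Of the 27 tested, 6 passed with more calls in the embryo (22.2%, beside the 16.8% of all tested regions). With more calls at day 6, 0 passed (0.173% of all). The 6 were 2 at Gcm2, 3 at Casr, 1 at Gata3 and 0 at Pth. Without replicate 1 of E15 or without replicate 2 of E17 none of them passed, since the smallest adjusted p was then 0.0514 or 0.0561, and without replicate 2 of mTEC1 there were 10. With peaks limited to a −log10 q of at least 5, 11 of 12 tested regions separated the ages, beside 70.7% of the 36570 regions tested at that strength, and 0 were higher at day 6, beside 0.0355%. The 11 were 5 at Gcm2, 4 at Casr, 1 at Pth and 1 at Gata3 (Fisher's exact test, adjusted p = 0.0109 or 0.0471).

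Replicates shared more of their regions in the embryo. Of the regions in the 4 windows called in either library of a group, both libraries shared 25 of 36 at E15 (69.4%), 26 of 48 at E17 (54.2%), 6 of 32 in mTEC4 (18.8%), 6 of 33 in mTEC1 (18.2%) and 6 of 28 in mTEC2 (21.4%). The shares over all regions were 66.7%, 51.2%, 19.9%, 20.1% and 22.0% in the same order.

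Over the 5 groups, none of the 4 genes passed. Group membership accounted for 77.0% of the spread of counts between libraries at Gcm2, 82.1% at Pth, 74.6% at Casr and 55.6% at Gata3 (exact permutation, adjusted p = 0.373, 0.368, 0.400 and 0.539). No gene of the genome passed this test (0%), although 2966 had an unadjusted p under 0.05, and at least 464 genes at the smallest possible p would have been needed for 1 to pass. By group mean, Gcm2 ran from 8.5 at E17 and 7 at E15 to 4 in mTEC4, 3.5 in mTEC1 and 2 in mTEC2. Casr ran from 16.5 at E17 and 13.5 at E15 to 7 in mTEC1, 6 in mTEC4 and 5.5 in mTEC2. Gata3 ran from 8.5 at E17 and 6.5 at E15 to 6 in mTEC2, 4.5 in mTEC1 and 2 in mTEC4. Pth ran the other way, with 7 in mTEC4, 4.5 in mTEC1 and 3.5 in each of the other groups. The libraries of neighbouring groups in these orders overlapped or met at the same count, except where the ages met at Gcm2 and Casr and between mTEC4 and mTEC1 at Pth.

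With 50 kb on each side, the Foxn1 window held more regions in every embryonic library than any of the 4 gene windows. It held 19 and 18 regions at E15, 18 and 24 at E17, 3 and 5 in mTEC4, 5 and 10 in mTEC1, and 15 and 8 in mTEC2. Of its 30 regions, 21 lay nearer to another gene than to Foxn1. The order did not hold for Casr in narrower counts. By nearest regions, Casr held 11 and 8 at E15 and 9 and 15 at E17, against 5 and 6, and 6 and 8, at Foxn1. Gata3 held 5 and 5, and 5 and 8. With 10 kb on each side, Casr held 11 and 8, and 8 and 14, against 7 and 8, and 8 and 10, at Foxn1. By regions per base of window, Foxn1 ranked between the 95.4th and 97.0th percentile of all genes in the embryo and between 33.2 and 93.8 at day 6. In the embryo Casr ranked between 54.8 and 75.5, Gcm2 between 52.9 and 59.6, Gata3 between 37.4 and 48.6, and Pth between 19.9 and 30.9. At day 6 the ranges were wider, from 35.8 to 59.8 at Casr, 9.99 to 73.4 at Gcm2, 4.53 to 64.9 at Gata3 and 21.1 to 89.9 at Pth. The relative count of each gene minus that of Foxn1 changed from day 6 to the embryo by -0.516 at Gcm2, -1.33 at Pth, -0.285 at Casr and -0.694 at Gata3, and none of these differences passed (exact permutation, adjusted p = 0.245, 0.0972, 0.553 and 0.122). The direction turned at Gcm2 with lists of equal length (0.0598) and with strong peaks (0.280), and at Casr with strong peaks (0.224) and with nearest regions (0.169). No gene passed this contrast (0%). Of the 10717 genes with an unadjusted p under 0.05, 10597 had a negative change. The median change over all genes was -0.788, more negative than at Gcm2, Casr and Gata3. By the relative difference between the ages, Foxn1 itself lay at the 96.5th percentile of all genes.

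**Figure D4:**
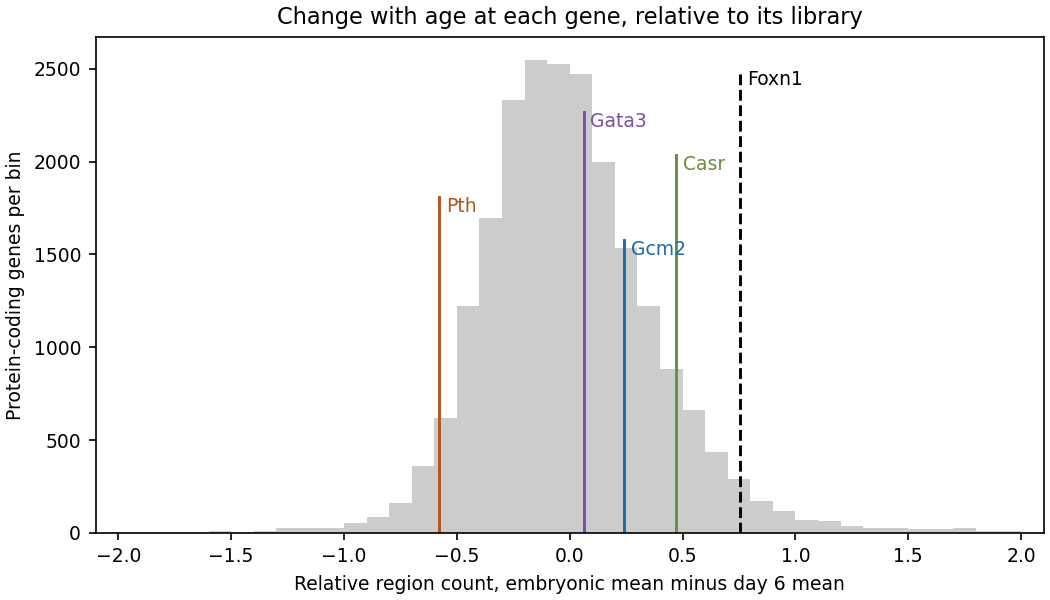
Number of protein-coding genes by the difference between the embryonic and day 6 means of the relative region count, in bins of 0.1, with vertical lines at Gcm2, Pth, Casr, Gata3 and, dashed, Foxn1. Pth at -0.58 lies in the lower tail, Casr at 0.47 and Foxn1 at 0.76 in the upper part, and Gata3 at 0.06 and Gcm2 at 0.24 in the body of the distribution.

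The other genes of the pathway were counted in the same way. Of 24 regulators of the pouch and of parathyroid formation, 13 passed the test with more regions in the embryo (54.2%, beside 37.4% of all genes) and 0 with more at day 6 (1.01% of all genes), with a median difference of 4.17 regions beside 3.5 over all genes. The largest differences among those that passed were at Gli3, a transcription factor of hedgehog signalling (18.4 regions), Fgfr2, a fibroblast growth factor receptor (14.3), Hoxa3, the homeobox factor of the pouch (9.58), Ripply3, a corepressor of the pharynx (8.58), and Eya1, a transcriptional coactivator (7.67). Of 24 genes of parathyroid hormone and calcium handling, 12 passed with more regions in the embryo (50%) and 0 with more at day 6, with a median difference of 4.83. The largest were at Gnaq (18.8) and Gna11 (8.33), the G protein subunits that act behind the calcium-sensing receptor, Vdr, the vitamin D receptor (11.2), Fgf23, a phosphate-regulating hormone (7), and Cyp24a1, which degrades active vitamin D (6.75). On the relative scale the median differences were 0.05 and 0.15, beside -0.03 over all genes. Of 12 thyroid and C cell genes, which mark the neighbouring gland, 4 passed with more regions in the embryo (33.3%). Of the 17 TEC marker genes, 12 passed (70.6%), a higher share than in either pathway list. The remaining lists of cell types and housekeeping genes ran from 10% (thymocyte and T cell genes) to 44.4% (mesenchymal genes).

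By the pattern of relative counts over the 10 libraries, the genes most like Gcm2 were Atg2a, Tead2 and Itgb5 (Pearson r 0.947, 0.921 and 0.899). Those most like Pth were Arih2, Gcat and Tm4sf1 (0.972, 0.970 and 0.969), those like Casr included Ivl and Smcp (0.950 and 0.940), and those most like Gata3 were Rbm33, Zcchc24 and Golph3 (0.946, 0.904 and 0.894). These are among the highest values over all genes and share the same 10 lists, so they describe likeness and carry no test. The 4 genes were less like one another, with r from -0.750 between Gcm2 and Gata3 to 0.457 between Gcm2 and Casr.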

How the data were processed

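ATAC-seq peak lists of 10 TEC libraries were used, grouped by sample title. The build was mm10 and the tools were MACS2, Bowtie2, Picard and cutadapt, per the submitters' processing notes. Versions and any shift of read ends are not given in the sources used here. Per the labels the lists hold nucleosome-free chromatin. Each library has its own broad peak list, deposited by the authors. Each peak carries a score, a fold enrichment (a ratio to the caller's background) and −log10 p and −log10 q from the authors' caller; the deposited score and −log10 p were not used. No read counts were used, so depth is unknown, and where no peak was called the site need not be closed.

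Peaks of all lists that touched or shared at least 1 bp formed 1 region. Regions overlapping a gene span with 50 kb on each side were counted per library. Means were tested by exact permutation with all 210 choices of 4 libraries among 10, groups over 945 divisions into pairs, and regions called in 3 to 7 libraries by Fisher's exact test, all two-sided, with Benjamini-Hochberg adjustment over all genes or regions (threshold 0.05). At least 2085 genes at the smallest p are needed for an adjusted p of 0.05. Gene spans came from RefSeq (GRCm38.p6); all 139 listed symbols and the 4 promoters matched. The programs were tested on simulated data and used Python 3.11.15, numpy 2.4.6 and pandas 2.3.3.

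Named genes were the 4 members, Foxn1, their protein-coding neighbours, the 3 most alike genes per member, and up to 5 passing genes per direction of each pathway list; regions described were mainly those called in at least 4 libraries, in both libraries of a group, or at a gene end, and a few others whose values had been seen first. A gene that this rule selects is not reported here. The members and lists were chosen with earlier results of these data known. Alternatives were other window widths, nearest regions, relative counts, equal list lengths, a −log10 q of at least 5, bases covered, stricter overlap, replicate blocks and leaving out each library.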

Additional observations from a re-analysis of the deposited data

Results flagged for a closer look

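Replicate 2 of E17 had 10 called regions in the Gcm2 window, while the other 3 embryonic libraries had 7 each. Its distance from them made up the whole range of the group, above the critical value for 4 samples. It was the 1 value flagged of 16 groups examined. Because the other 3 counts are tied, any different value would have been flagged, so the usual rate of about 1 in 20 does not hold here. The same library had the longest of the 10 lists, and its relative count of 0.812 lay within the range of the other 3, 0.780 to 0.883. Without it the Gcm2 difference was 3.83 regions (exact permutation, adjusted p = 0.0658).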

How the results depend on the processing

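With all lists cut to 40858 peaks, the difference in regions was 2 at Gcm2, -0.0833 at Casr and -0.583 at Gata3, none of which passed. In that setting 1 region, instead of 6, passed with more calls in the embryo. Counting only the nearest regions gave 1.25 at Gcm2 and 6.58 at Casr, and dividing by the library mean gave 0.24 and 0.47, all short of the threshold. With a −log10 q of at least 5, Pth turned to 2, where 81.4% of all genes passed with more in the embryo, and 11 of 12 tested regions separated the ages, beside 70.7% of all regions tested. Bases covered gave 783.8 at Pth and 1186.8 at Gata3, both higher in the embryo and past the threshold. The contrast with Foxn1 turned positive at Gcm2 with equal lists (0.0598) and with strong peaks (0.280), and at Casr with strong peaks (0.224) and nearest regions (0.169), with no call. The calls at Gcm2 and Casr held with 10 kb and 100 kb windows. The cause of these shifts was not tested.

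Leaving out each library gave differences of 3.83 to 5.15 at Gcm2, 6.83 to 10.2 at Casr, 2.17 to 4.3 at Gata3 and -1.9 to -0.9 at Pth. The Gcm2 call was lost without any 1 library other than replicate 1 of E17 and replicate 1 of mTEC2 (highest adjusted p 0.0658), and the Casr call without either E15 library, E17 replicate 2, mTEC4 replicate 2 or mTEC1 replicate 2, each by an exact permutation test with fewer arrangements. The count of regions that passed with more calls in the embryo ran from 0 to 10.

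The same replicate numbers recur in each group. Deviations of same-numbered libraries correlated between -0.311 (E17 with mTEC2) and 0.354 (mTEC4 with mTEC1) over 10 pairs of groups, with 1 above 0.1. Whether same-numbered libraries share a batch was not tested. With the replicate block the differences stayed 4.58 at Gcm2 and 8.83 at Casr (exact permutation, adjusted p = 0.0472 for both), -1.5 at Pth and 3.33 at Gata3. With that block 6 regions passed with more calls in the embryo. Read depth, which is unknown, limits every statement about a missing peak.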
